A study of Homo sapiens with 18 samples.

Results

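The collagen genes, here the 44 genes whose symbols have the form COL, a number, A and a number, were followed through 18 RNA-seq libraries of 786-O cells, an established human clear cell renal carcinoma line. The 44 were found by that symbol in each of the 3 deposited tables, as protein-coding genes among 58735 identifiers in the RBCK1 and ANKRD35 tables and as row names among 29928 symbols in the MITD1 table. Of these, 11 encode fibrillar collagens, 6 the type IV chains of basement membranes, and 27 other types. Cells of 6 groups, with 3 libraries each, were compared: shRBCK1 against shcontrol, siANKRD35 against sicontrol_for_siANKRD35, and siMITD1 against sicontrol_for_siMITD1, where the sample titles use sh (short hairpin RNA) or si (small interfering RNA) before the named target. The deposited columns of siANKRD35 are named ShRNA, so which of the 2 reagents was used there cannot be told. All groups were grown in RPMI-1640 with serum, and no drug is named in the labels. The series title places the 3 targets in 1 proposed pathway, in which RBCK1, a subunit of the linear ubiquitin chain assembly complex, acts on sunitinib sensitivity through ANKRD35, an ankyrin repeat protein, and MITD1, a protein of cytokinesis. Whether the libraries of a group stem from separate cultures is not in the labels, so each p-value rests on the spread among libraries, which may be technical.

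Collagens are trimers of alpha chains wound into a triple helix. Chains are hydroxylated and folded in the endoplasmic reticulum, secreted, and in many types trimmed and crosslinked outside the cell. Fibrillar types form the banded fibres of connective tissue, type IV forms the sheet-like network of basement membranes such as those under kidney tubules, and type VI forms beaded microfilaments. Since a trimer holds fixed numbers of particular chains, the levels of partner chains are given side by side below. Only RNA was measured.

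Levels are in FPKM, fragments scaled by gene length and by library size, so genes can be compared within a table. The 3 tables were normalized separately, and levels set side by side across tables are a description. Changes are differences of group means of log2(FPKM + 1), knockdown minus control, which understate the change of genes near or below 1 FPKM. A gene was tested where at least 3 of the 6 libraries of its comparison reached 1 FPKM, and was called where the adjusted p of limma, a linear model fitted across all tested genes, was under 0.05. Recovered reads per library were 16346478 to 18648246 for the RBCK1 table, 17502646 to 19034974 for the ANKRD35 table and 12703947 to 13888443 for the MITD1 table, the last over the genes whose reads came out whole. Each target was lower in its knockdown. RBCK1 was at 487, 491.7 and 462 FPKM in shcontrol and at 30.83, 32.03 and 32.9 in shRBCK1. ANKRD35 was at 753.2, 687.1 and 742 FPKM in its controls and at 0, 0 and 0.033 in siANKRD35. MITD1 was at 7.16, 7.423 and 7.828 FPKM in its controls and at 2.434, 2.659 and 3.033 in siMITD1. None of these groups overlap, and the two-sided exact permutation test of 3 against 3 libraries gave p = 0.1 for each, the smallest it can give.

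The 6 libraries of the ANKRD35 table stood apart from the other 12. ANKRD35 itself was at most 0.0392 FPKM in the other 12 libraries. CDH6, a cadherin of renal tubule and renal carcinoma cells, was listed at 0 in these 6 libraries and at 13.3 to 28.9 FPKM in the others, and THY1, a surface protein of fibroblasts and other stromal cells, was at 34.1 to 44.1 FPKM against at most 0.294. PAX8, a renal lineage factor, was at 33.0 to 48.3 FPKM there and at 17.5 to 41.3 in the others. Of 8 fibroblast markers other than collagens, 1 reached 1 FPKM in at least 3 libraries of the ANKRD35 table and 2 in each of the other tables; LUM and PDPN were listed at 0 and DCN was at most 0.116 FPKM in the ANKRD35 table. The summed level of the 8 was 34.6 to 37.6 FPKM in the ANKRD35 controls and 35.1 to 44.4 in siANKRD35, almost all of it THY1, and 4.57 to 6.62 in the other 4 groups. Of 7 endothelial markers only EGFL7 reached 1 FPKM in the ANKRD35 table, at 20.2 to 27.2 FPKM in the controls and 27.1 to 51.5 in siANKRD35, and the other 6, PECAM1, CDH5 and VWF among them, were at most 0.108 FPKM. PTPRC, the pan-leukocyte marker, was at 0 there. The other 12 libraries also differed between tables. RBCK1 was at 462 to 491.7 FPKM in shcontrol, against 64.67 to 66.52 in the MITD1 controls and 68.24 to 73.1 in the ANKRD35 controls. In siMITD1 it was at 91.83 to 96.57 FPKM. The origin of the differences between tables was not tested, and each knockdown is compared only with the control of its own table. Within siANKRD35, library 2 differed most from its group: the chi-square per gene between it and the other 2 libraries was 48.5 and 27.3, against 2.12 to 8.67 for every other pair of libraries of a group.

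Of the 44 collagen genes, 16 were tested in at least 1 comparison and 10 in all 3. The remaining 28 were tested in none, and 18 of the 44 stayed under 0.1 FPKM in all 18 libraries. COL6A3, the long chain of type VI, had the highest level in shcontrol at 130.9 ± 1.14 FPKM (SD, n = 3), followed by COL7A1, the anchoring fibril chain, at 80.6 ± 0.94. COL6A2, COL18A1, COL6A1, COL4A1 and COL4A2 followed at 37.4, 33.0, 27.5, 20.6 and 17.4 FPKM, in this order and without overlap between neighbours in the 3 libraries. In sicontrol_for_siMITD1 the same 7 genes led, again with COL6A3 first at 51.1 ± 0.93 FPKM, and COL18A1 at 41.6 to 45.7 FPKM could not be separated from COL6A2 at 41.6 to 43.6. In sicontrol_for_siANKRD35 the order was different: COL4A1 at 31.9 ± 1.09 and COL4A2 at 29.05 ± 1.23 FPKM led, ahead of COL18A1 at 18.6 ± 0.91 and COL6A2 at 15 ± 0.78. COL6A3 was near 0 there, at 0.009 to 0.050 FPKM over both groups, which corresponds to 62 reads in 6 libraries against 128597 reads in the 3 shcontrol libraries.

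**Figure D1:**
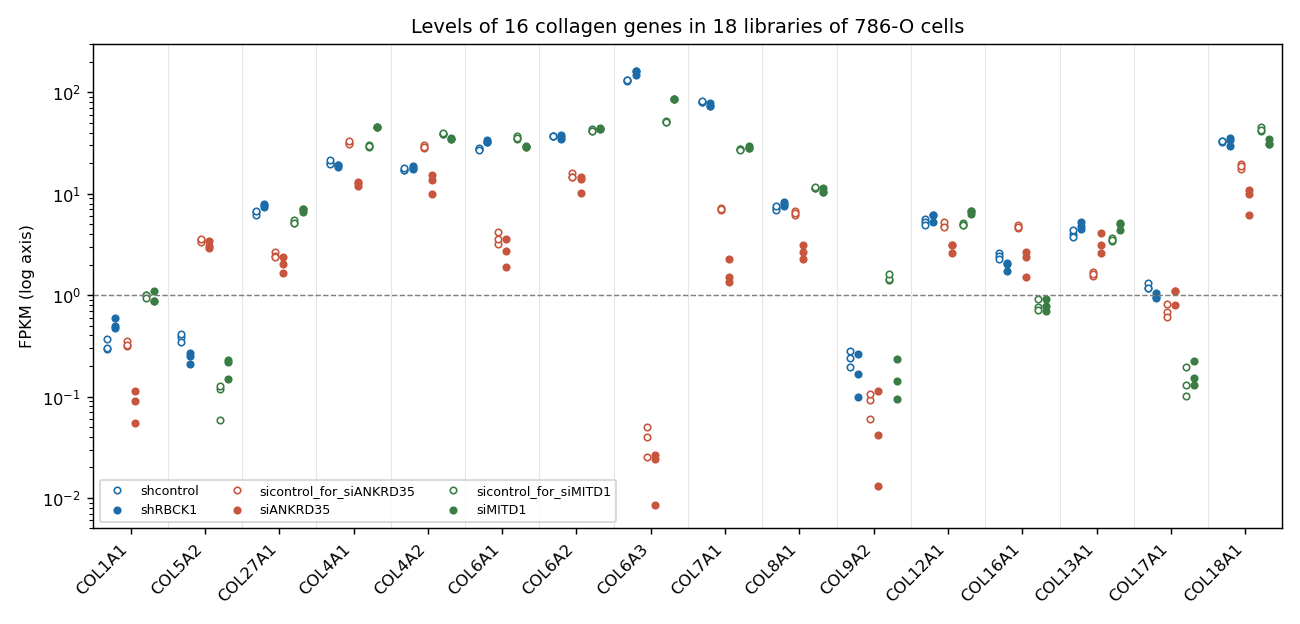
FPKM on a log axis of the 16 collagen genes tested in at least 1 comparison, with 1 point per library, open for controls and filled for knockdowns, coloured by table; the dashed line marks 1 FPKM. COL6A3 spans from 0.009 FPKM in the ANKRD35 table to 161.8 FPKM in shRBCK1.

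Summed over the 44 genes, collagen transcripts came to 376.6 ± 3.08 FPKM in shcontrol and 402.2 ± 12.8 in shRBCK1. The sum was 132.9 ± 3.94 FPKM in sicontrol_for_siANKRD35 and 71.2 ± 9.76 in siANKRD35, and 299.3 ± 2.24 in sicontrol_for_siMITD1 and 333.8 ± 3.69 in siMITD1. In each table all 3 knockdown libraries lay on 1 side of all 3 controls, above them for RBCK1 and MITD1 and below them for ANKRD35. Type VI chains made up 52.0% ± 0.391 of the sum in shcontrol and 56.2% ± 1.02 in shRBCK1, and 43.2% ± 0.682 and 47.8% ± 0.412 in the MITD1 control and knockdown. In the ANKRD35 table their share was 14.1% ± 0.596 and 22.0% ± 1.87, while type IV held 46.8% ± 0.623 and 37.2% ± 1.59. Fibrillar types never exceeded 8.79% of the sum in a library.

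Knockdown of RBCK1 was accompanied by small shifts, and the share of collagen genes called in either direction was close to that of all tested genes. Of 13 tested collagen genes, 4 rose (COL6A3, COL6A1, COL27A1 and COL13A1), 2 fell (COL7A1 and COL16A1) and 7 did not pass, where 49.1% of all 12227 tested genes were called, 24.1% higher and 24.9% lower. The called changes ran from a fall by 0.22 for COL16A1 to a rise by 0.26 for COL6A3. The median change of the 13 was 0.04, against 0.01 over all tested genes, and the groups did not overlap for 9 of the 13, where this held for 59.0% of tested genes. COL6A3, COL6A1 and COL27A1 were called under all 15 alternative settings in which they were tested. The other 3 calls were not: without shcontrol 1, without shcontrol 3 or without shRBCK1 2 the number of called collagen genes was 3, and it was 4 without each of the other libraries.

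Of the 12 collagen genes tested in the ANKRD35 comparison, 7 fell and 1 rose. COL7A1, COL4A1, COL4A2, COL8A1, COL18A1, COL16A1 and COL12A1 fell, to between 0.243 and 0.599 times their control means. COL13A1, a transmembrane collagen, rose to 2.02 times, and COL5A2, COL27A1, COL6A1 and COL6A2 did not pass. The 7 lower of 12 tested compare with 16.9% lower among all 11890 tested genes, and the 1 higher with 19.4%, 36.3% being called in either direction. The median change of the 12 was -0.73, against 0.03 over all tested genes, and groups did not overlap for 9 of the 12, as for 52.2% of tested genes. In the same libraries 8 markers of the renal carcinoma line were summed. Their level was 970.2 to 1010 FPKM in the controls and 1236 to 1542 in siANKRD35, most of it KRT8, KRT18 and VIM. Of the others, CDH6 was listed at 0 in these libraries, CA9 was at most 0.0348 FPKM and NDUFA4L2 at most 1.305. KRT8 and KRT18 were higher in siANKRD35. PAX2 was lower, at 4.145 to 5.487 FPKM in the controls and 1.891 to 2.812 in siANKRD35, and PAX8, VIM and NDUFA4L2 overlapped. The summed endothelial markers were 20.3 to 27.3 FPKM in the controls and 27.3 to 51.6 in siANKRD35. Markers also shifted in the other comparisons. The sum of the 8 was 735 to 759.2 FPKM in shcontrol and 580.2 to 610 in shRBCK1. In the MITD1 table it was 745.5 to 761.8 FPKM in the controls and 766.1 to 777.9 in siMITD1. PAX8 was higher in shRBCK1, and lower in siMITD1 at 17.52 to 19.51 FPKM against 34.4 to 35.35. EGFL7 was at 9.382 to 10.06 FPKM in the MITD1 controls and 4.838 to 6.191 in siMITD1. The part of these markers in the collagen results was not tested. The 8 calls held under every alternative setting in which the gene was tested, among them the fit without siANKRD35 2, in which the median of the 12 was -0.66 and the falls of COL4A2 and COL18A1 were -0.95 and -0.78.

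Between siMITD1 and its control collagen genes changed in both directions, with 9 of 13 tested called, close to the 65.6% of all tested genes. COL6A3, COL4A1, COL13A1, COL12A1 and COL27A1 rose, by 1.31 to 1.68 times, and COL18A1, COL6A1 and COL4A2 fell, to between 0.748 and 0.898 times the control mean. COL9A2 was also called lower, but passed the filter only through its controls, so its direction was favoured by the filter. The other 4 of 13 tested, COL1A1, COL6A2, COL7A1 and COL8A1, did not pass. The 5 higher compare with 30% and the 4 lower, or 3 of 12 without COL9A2, with 35.6% of all 10415 tested genes, 65.6% being called in either direction. The median change was 0.05, against -0.03 over all tested genes, and groups did not overlap for 11 of the 13, as for 70.4% of tested genes. Without COL9A2 the median was 0.06 and 10 of 12 did not overlap. The 9 calls held under every alternative setting in which the gene was tested.

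**Figure D2:**
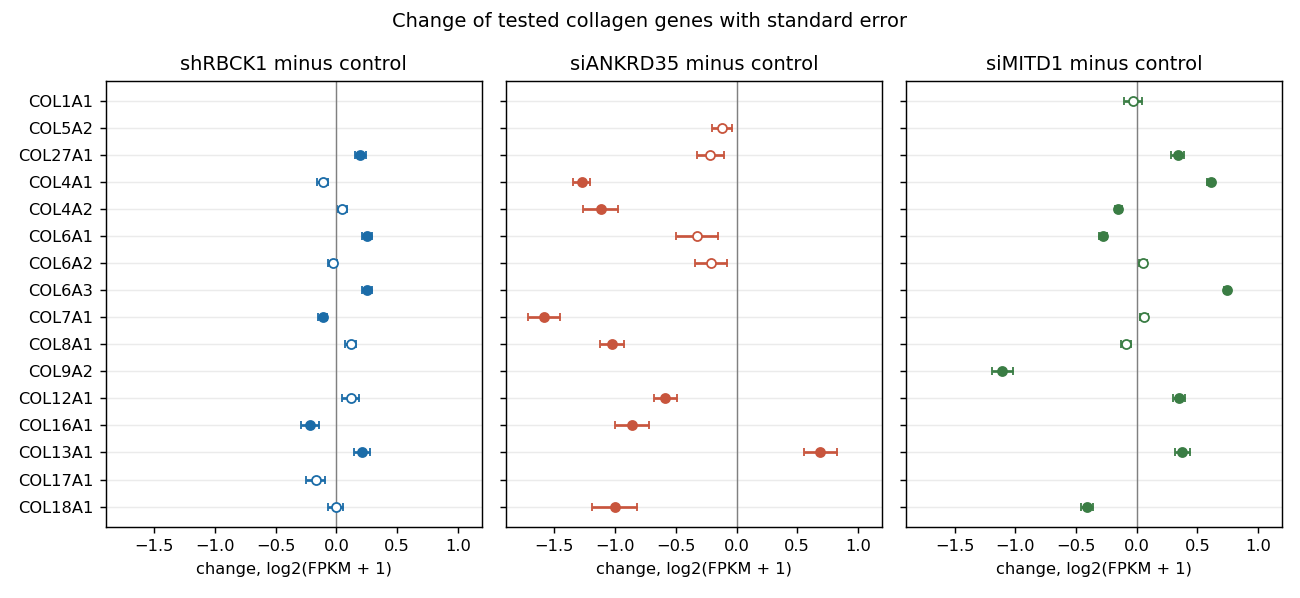
Change of each tested collagen gene in log2(FPKM + 1), knockdown minus control, with its standard error (n = 3 libraries a group); filled points have an adjusted p under 0.05 and open points do not, and a missing point means that the gene was not tested there. Most points lie left of 0 for siANKRD35 and on both sides of 0 for shRBCK1 and siMITD1.

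The type IV genes COL4A1 and COL4A2 encode the 2 chains of the most widespread basement membrane collagen and lie head to head on chromosome 13. In the files' GENCODE 29 annotation (GRCh38) COL4A1 (ENSG00000187498) spans chr13:110148963-110307233 on the minus strand and COL4A2 (ENSG00000134871) chr13:110305812-110513209 on the plus strand. RefSeq (GRCh38.p14) places their start sites at 110307157 and 110307284, with 126 bases between them. This shared stretch is shown because the 2 genes it separates moved together in one knockdown and apart in another; it is at chr13:110307158-110307283, read 5′ to 3′ on the strand of COL4A2, with a CCAAT box and a GC box in capitals.
COL4A1-COL4A2: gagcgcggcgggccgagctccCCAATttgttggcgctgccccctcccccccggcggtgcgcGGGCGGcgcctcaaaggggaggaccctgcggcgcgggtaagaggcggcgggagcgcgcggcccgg
Its GC content is 80.2%. The motifs searched on both strands were CCAAT, the GC box GGGCGG, the TATA box TATAAA and the AP-1 site TGANTCA; the last 2 had no match in these letters, and the 2 matches do not overlap. In the 126 bases upstream of the start sites of 35116 RefSeq promoters, 21.1% hold CCAAT, 34.6% the GC box, 5.87% the TATA box and 3.5% the AP-1 site. A match is a description of the letters and not a binding site.

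COL4A1 was at 31.3, 31.2 and 33.2 FPKM in the ANKRD35 controls and at 13.1, 12.7 and 12.0 in siANKRD35. COL4A2 was at 30.4, 28.1 and 28.6 FPKM in those controls and at 15.4, 10.0 and 13.7 in siANKRD35. Every knockdown library was thus below every control for both genes, and the spread of COL4A2 between knockdown libraries was wider. The change was -1.28 (SE 0.070, adjusted p = 0.000311) for COL4A1 and -1.12 (SE 0.145, adjusted p = 0.00237) for COL4A2. In the MITD1 table COL4A1 was at 30.2, 28.8 and 29.4 FPKM in the controls and at 45.5, 45.7 and 45.3 in siMITD1, a change of 0.61 (SE 0.030, adjusted p = 6.76e-07). COL4A2 was at 38.7, 39.1 and 39.6 FPKM in the same controls and at 34.9, 35.4 and 35.0 in siMITD1, a change of -0.15 (SE 0.027, adjusted p = 0.00126). Here the partner chains went opposite ways without overlap, and the ratio of COL4A1 to COL4A2 went from 0.738 to 0.780 in the controls to 1.29 to 1.302 in the knockdown. That ratio is read within the table only, since the recovered reads show that the MITD1 table used other lengths for these genes. In the RBCK1 table COL4A1 was at 20.2, 19.7 and 21.7 FPKM in shcontrol and 19.2, 18.4 and 19.2 in shRBCK1, and COL4A2 at 17.0, 17.1 and 18.1 and 17.5, 17.8 and 18.6. Neither passed, with changes of -0.11 (adjusted p = 0.063) and 0.04 (adjusted p = 0.413). COL4A1 did pass there with a length correction (adjusted p = 0.0111), with the same correction and a replicate block (adjusted p = 0.024), and with voom on recovered reads (adjusted p = 0.0148).

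**Figure D3:**
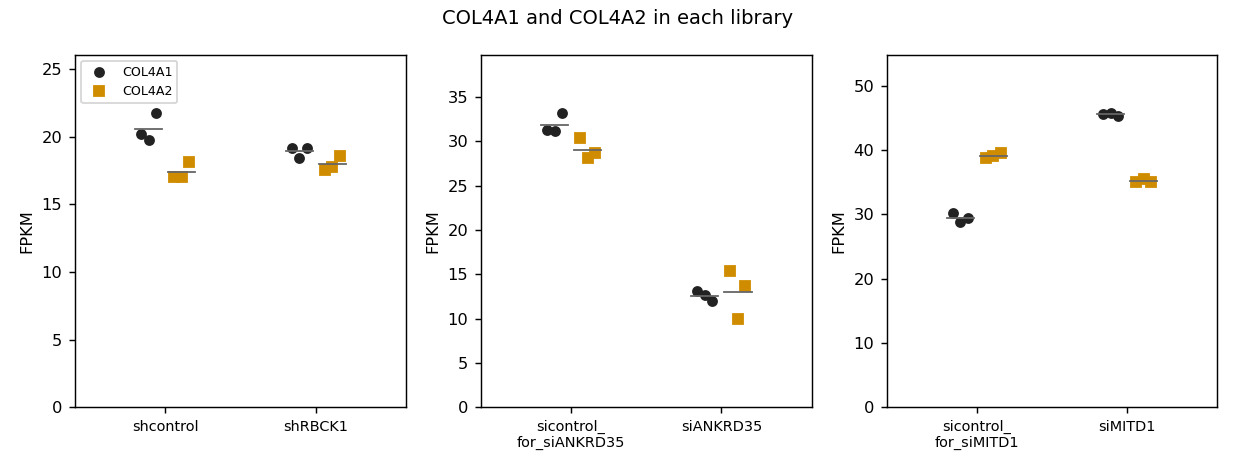
FPKM of COL4A1 (circles) and COL4A2 (squares) in each library, with 1 panel per table, its own axis from 0, and a line at each group mean (n = 3). Both genes are lower in siANKRD35, while in siMITD1 COL4A1 is higher and COL4A2 lower.

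In a joint fit over 11823 genes and all 3 tables, the change of COL4A1 differed between siMITD1 and siANKRD35 by 1.88 (SE 0.063, adjusted p = 6e-12), between siMITD1 and shRBCK1 by 0.72 (adjusted p = 1.52e-07) and between siANKRD35 and shRBCK1 by -1.16 (adjusted p = 7.98e-10). In that fit 58.5%, 47.5% and 48.8% of genes were called for these 3 differences. Target and table change together, so the 2 cannot be told apart in these differences or in those given below. The fit pools the spread of a gene over all 18 libraries, so its standard errors differ from those of the separate fits. For COL4A2 the siANKRD35 change differed from those of siMITD1 (difference 0.97, siMITD1 minus siANKRD35, adjusted p = 1.71e-05) and shRBCK1 (-1.16, siANKRD35 minus shRBCK1, adjusted p = 4.32e-06). The siMITD1 and shRBCK1 changes of COL4A2 were not distinguished (-0.19, SE 0.135, adjusted p = 0.256), in a fit whose spread is shared with the more variable siANKRD35 libraries. The other type IV genes were low throughout: COL4A5 ranged from 0.198 to 0.871 FPKM over the 18 libraries, and COL4A3 and COL4A4 reached 0.152 and 0.325 FPKM in the ANKRD35 controls. COL4A4 was at 0.254, 0.305 and 0.325 FPKM there and at 0.081, 0.112 and 0.039 in siANKRD35. It was under the filter, and with no filter its change was -0.27 (adjusted p = 0.0206).

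Type VI trimers join the chains of COL6A1, COL6A2 and COL6A3. COL6A3 (chr2:237324003-237414375, GRCh38) was at 131.5, 129.6 and 131.7 FPKM in shcontrol and at 161.8, 147.1 and 160.8 in shRBCK1, a change of 0.26 (SE 0.042, adjusted p = 0.00199). In the MITD1 table it was at 52.2, 50.7 and 50.5 FPKM in the controls and at 85.9, 86.6 and 85.8 in siMITD1, a change of 0.74 (SE 0.026, adjusted p = 1.41e-07). All knockdown libraries of both tables lay above their controls, and the rise was larger by 0.49 (SE 0.056, adjusted p = 3.25e-06) in siMITD1. COL6A1 was at 27.4, 28.4 and 26.7 FPKM in shcontrol and at 32.3, 32.3 and 34.1 in shRBCK1, a change of 0.25 (SE 0.038, adjusted p = 0.00142). It moved the other way in the MITD1 table, from 36.8, 34.9 and 35.9 FPKM to 29.1, 29.9 and 29.1, a change of -0.28 (SE 0.032, adjusted p = 8.05e-05). The 2 changes of COL6A1 differed by -0.53 (siMITD1 minus shRBCK1, SE 0.160, adjusted p = 0.0123). COL6A2 did not pass in any table, with means of 37.4 and 36.6 FPKM for RBCK1, 15 and 13 for ANKRD35, and 42.4 and 44 for MITD1, control first. In the MITD1 table it passed with a length correction (change 0.09, adjusted p = 0.0346), also with the replicate block added (adjusted p = 0.0237), and after correction for length and GC (change 0.18, adjusted p = 0.00187).

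The chains therefore changed in unequal proportion. COL6A3 stood to COL6A2 as 3.50 ± 0.041 in shcontrol and 4.28 ± 0.313 in shRBCK1, and as 1.21 ± 0.009 and 1.96 ± 0.043 in the MITD1 control and knockdown. The ratio of COL6A1 to COL6A2 was 0.736 ± 0.023 and 0.899 ± 0.021 in the RBCK1 table and 0.847 ± 0.015 and 0.669 ± 0.019 in the MITD1 table. In the ANKRD35 table COL6A1 was at 4.16, 3.20 and 3.54 FPKM in the controls and 3.57, 1.90 and 2.76 in the knockdown, overlapping groups with a change of -0.33 (adjusted p = 0.175). Without siANKRD35 1 this change was -0.49 and passed (adjusted p = 0.0478). COL6A5 and COL6A6, the alternative long chains, stayed under 0.1 FPKM in all 18 libraries.

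**Figure D4:**
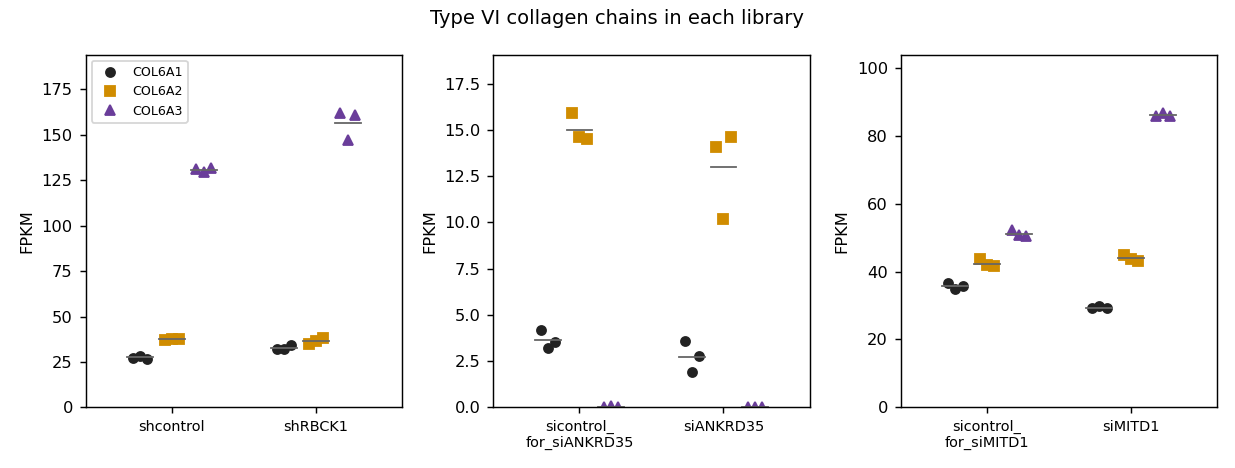
FPKM of COL6A1 (circles), COL6A2 (squares) and COL6A3 (triangles) in each library, with 1 panel per table, its own axis from 0, and a line at each group mean (n = 3). COL6A3 is the highest chain in the RBCK1 and MITD1 tables and lies at the axis in the ANKRD35 table, where it was at most 0.050 FPKM.

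COL7A1 encodes the chain of the anchoring fibrils that tie epithelial basement membranes to the tissue beneath. It was at 7.16, 6.87 and 7.15 FPKM in the ANKRD35 controls and at 2.29, 1.34 and 1.51 in siANKRD35. This was the largest fall among the tested collagen genes of that comparison, to 0.243 times the control mean (change -1.59, SE 0.133, adjusted p = 0.000798). In the RBCK1 table it was at 80.0, 80.1 and 81.7 FPKM in shcontrol and at 72.8, 72.7 and 77.7 in shRBCK1, a change of -0.11 (SE 0.035, adjusted p = 0.0303). That call was lost without any 1 library other than shRBCK1 3 (adjusted p 0.0638 to 0.0888), with no filter (0.0727), after correction for length and GC (0.103) and with quantile normalization (change -0.02, adjusted p = 0.711). In the MITD1 table the means were 27.4 and 28.6 FPKM and the change of 0.06 did not pass (adjusted p = 0.131), but it passed with quantile normalization (0.10, adjusted p = 0.028) and after correction for length and GC (0.08, adjusted p = 0.0448). The siANKRD35 change of COL7A1 differed from that of shRBCK1 by -1.47 (SE 0.121, adjusted p = 1e-07).

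COL8A1, a network-forming chain of type VIII, was at 6.72, 6.13 and 6.52 FPKM in the ANKRD35 controls and at 2.66, 3.09 and 2.28 in siANKRD35, a change of -1.02 (SE 0.0996, adjusted p = 0.0012). It did not pass in the other tables, where the means were 7.21 and 7.90 FPKM for RBCK1 (adjusted p = 0.0829) and 11.5 and 10.7 for MITD1 (adjusted p = 0.102). The RBCK1 change passed with quantile normalization (0.15, adjusted p = 0.0362) and with voom on recovered reads (0.13, adjusted p = 0.04), and the MITD1 change passed without siMITD1 3 (-0.12, adjusted p = 0.0347). COL18A1 encodes a basement membrane proteoglycan core whose released end fragment is endostatin. It was at 19.5, 17.6 and 18.7 FPKM in the ANKRD35 controls and at 10.9, 6.16 and 9.85 in siANKRD35 (change -1.01, SE 0.184, adjusted p = 0.00712), and at 41.6, 45.7 and 42.8 FPKM in the MITD1 controls and 31.1, 34.9 and 31.2 in siMITD1 (change -0.41, SE 0.052, adjusted p = 0.000158). It was lower in every knockdown library of both tables and did not pass in the RBCK1 table, with overlapping groups at means of 33.0 and 32.9 FPKM (adjusted p = 0.964). The fall was larger in siANKRD35 than in siMITD1 by 0.60 (adjusted p = 0.0115). COL18A1 shares 1401 exon bases, 16.4% of its listed length, with SLC19A1 on the opposite strand; SLC19A1 reached 8.55 FPKM, and the kit kept strand but the counting strand is not given in the sources used here.

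Among the fibril-associated types, which bind to the surface of fibrils, COL12A1 fell in siANKRD35 from 4.77, 5.32 and 4.68 to 2.58, 3.12 and 3.13 FPKM (change -0.59, SE 0.092, adjusted p = 0.00424). It rose in siMITD1 from 5.11, 4.91 and 4.92 to 6.32, 6.71 and 6.80 FPKM (change 0.35, SE 0.048, adjusted p = 0.000253), and overlapped between shcontrol and shRBCK1 (adjusted p = 0.209). The 2 called changes of COL12A1 are of opposite sign and differed by 0.93 (adjusted p = 1.1e-06). COL16A1 fell in siANKRD35 from 4.94, 4.55 and 4.67 to 2.65, 1.52 and 2.37 FPKM (change -0.86, SE 0.141, adjusted p = 0.00487). In shRBCK1 its means were 2.43 and 1.95 FPKM with a change of -0.22 at an adjusted p of 0.0458, and that call was lost without any 1 library (adjusted p 0.0507 to 0.134), with no filter (0.132), after correction for length and GC (0.0754), with a replicate block (0.0952) and with that block and a length correction (0.0826). COL16A1 was under the filter in the MITD1 table, at 0.691 to 0.912 FPKM. COL9A2, a chain of the type IX collagen of cartilage, was tested only in the MITD1 table, at 1.41, 1.45 and 1.61 FPKM in the controls and 0.234, 0.094 and 0.143 in siMITD1. All 3 knockdown libraries were below the controls, at 0.105 times the control mean. Since it was admitted by its controls alone, the value that bears on it is that with no filter, a change of -1.11 (adjusted p = 7.26e-05). Its partner COL9A1 never exceeded 0.00768 FPKM.

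Of the 10 collagen genes tested in all 3 comparisons, 1 was called in each, COL13A1, a transmembrane collagen of cell adhesion sites. Of all tested genes 49.1%, 36.3% and 65.6% were called in shRBCK1, siANKRD35 and siMITD1, and the share called in all 3 was not counted. COL13A1 was higher in each comparison. It was at 1.71, 1.54 and 1.62 FPKM in the ANKRD35 controls and at 4.11, 2.60 and 3.12 in siANKRD35 (change 0.69, SE 0.133, adjusted p = 0.00847). In the MITD1 table it went from 3.67, 3.45 and 3.47 to 5.05, 4.44 and 5.14 FPKM (change 0.37, SE 0.062, adjusted p = 0.000758). In the RBCK1 table it went from 3.96, 4.36 and 3.78 to 4.45, 5.21 and 4.81 FPKM (change 0.21, SE 0.068, adjusted p = 0.0368), and this smallest of the 3 changes was not called without shcontrol 1 (0.0924), shcontrol 3 (0.108), shRBCK1 2 (0.108) or shRBCK1 3 (0.0838), or with no filter (0.108). Groups did not overlap in any table. The siANKRD35 change was larger than that of shRBCK1 by 0.48 (adjusted p = 0.00874), while siMITD1 was distinguished neither from shRBCK1 (0.16, adjusted p = 0.348) nor from siANKRD35 (-0.32, adjusted p = 0.0575). COL17A1, the transmembrane collagen of hemidesmosomes, passed the filter only in the RBCK1 table, with means of 1.23 and 0.981 FPKM (change -0.17, adjusted p = 0.106), and passed the test there only with voom on recovered reads (-0.32, adjusted p = 0.0393). In siANKRD35 it was at 1.09, 0.793 and 1.10 FPKM against 0.677, 0.608 and 0.809 in the controls, untested.

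Fibrillar collagens were low in all 18 libraries. The highest in the RBCK1 and MITD1 tables was COL27A1, a type known from cartilage, and in the ANKRD35 table COL5A2. COL27A1 rose in shRBCK1 from 6.66, 6.19 and 6.83 to 7.74, 7.43 and 7.83 FPKM (change 0.20, SE 0.048, adjusted p = 0.0114) and in siMITD1 from 5.16, 5.57 and 5.10 to 6.59, 7.07 and 7.11 FPKM (change 0.34, SE 0.052, adjusted p = 0.0005). In siANKRD35 its means were 2.49 and 2.02 FPKM and the change of -0.22 did not pass (adjusted p = 0.163); after correction for length and GC it turned to 0.24 and passed (adjusted p = 0.0205). COL5A2, a chain of the type V collagen that starts fibrils, was tested only in the ANKRD35 table, where it was at 3.49 ± 0.133 and 3.14 ± 0.229 FPKM (adjusted p = 0.272), and was at most 0.412 FPKM in the RBCK1 table and 0.227 in the MITD1 table. COL1A1, the main chain of type I collagen, was at 0.988 ± 0.037 and 0.947 ± 0.121 FPKM in the MITD1 table (adjusted p = 0.73). Its partner COL1A2 gave 2 reads in the RBCK1 table, 1 in the ANKRD35 table and 0 in the MITD1 table, where 3 reads over the 6 libraries would be 0.00299 FPKM. COL3A1 was at most 0.155 FPKM, and COL2A1 gave no read in the RBCK1 and MITD1 tables. Such limits cover counting error only.

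Among genes below the filter, COL1A1 was at 0.312, 0.354 and 0.322 FPKM in the ANKRD35 controls and 0.112, 0.055 and 0.091 in siANKRD35. In the RBCK1 table the order was the other way, with 0.293, 0.298 and 0.367 FPKM in shcontrol and 0.499, 0.590 and 0.474 in shRBCK1. With no filter the ANKRD35 change of COL1A1 passed (-0.29, adjusted p = 0.0123) and the RBCK1 change did not (0.21, adjusted p = 0.133). COL14A1, a fibril-associated type, was below its controls in 2 knockdowns and above them in the third: its means were 0.797 and 0.402 FPKM for ANKRD35, 0.959 and 0.354 for MITD1, and 0.127 and 0.280 for RBCK1, control first. With no filter these 3 changes of COL14A1 passed, at adjusted p of 0.0458, 0.000372 and 0.0396. The other members that reached 0.1 FPKM in a library without passing any filter were COL5A1, COL11A2, COL8A2, COL9A3 and COL10A1, at no more than 0.722 FPKM, the value of COL11A2 in a shcontrol library.

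In the ANKRD35 table changes depended on gene length across the whole transcriptome, and the tested collagen genes there are long, at 5343 to 19293 bases. Among all genes of 5000 bases or more, 28.1% were called lower and 8.77% higher in siANKRD35, with a median change of -0.11, against 0.18 for shorter genes. In shRBCK1 27.1% of such long genes were called higher and 24.9% lower, and in siMITD1 32.3% and 32.6%. The 7 collagen genes that fell were called again after a correction for length, and after one for length and GC content, with smaller changes. COL7A1 went from -1.59 to -1.36 and -1.17, COL4A1 from -1.28 to -1.002 and -0.88, and COL4A2 from -1.12 to -0.81 and -0.59. COL12A1, the smallest fall, went from -0.59 to -0.34 and -0.32, and the median of the 12 genes from -0.73 to -0.51 and -0.42. COL13A1 stayed higher, at 0.73 and 0.82. The source of the length trend was not tested.

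**Figure D5:**
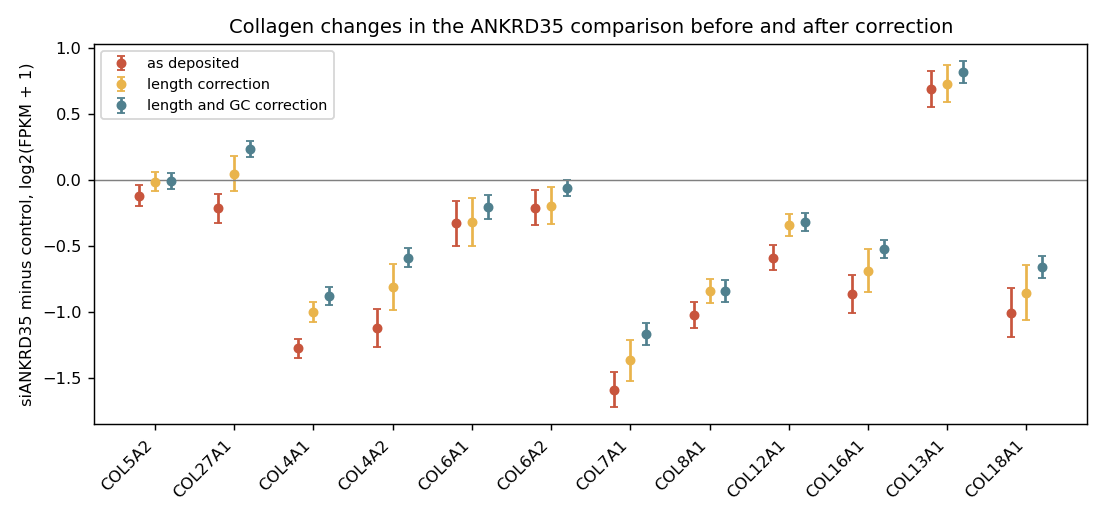
Change of the 12 tested collagen genes in siANKRD35 in log2(FPKM + 1), with standard errors (n = 3 libraries a group), from the values as deposited, after a length correction, and after a length and GC correction. Corrected changes are smaller for the 7 genes that fell, which remain below 0, and COL27A1 crosses 0.

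Promoters of 32 of the 44 genes, 12 of the 16 tested, are in the RefSeq table used here. Over the 250 bases upstream of the start, the GC box was in 10 of 13 windows of the 12 tested genes, against 42.6% of all 35116 windows. The TATA box was in 5 of the 13 against 10.7%, CCAAT in 3 against 32%, and the AP-1 letters in none against 6.57%. The windows of COL4A1 and COL4A2 are both among the 13 and share the 126 bases shown above. The CCAAT and the GC box of that stretch are therefore each counted in both windows. Over the 32 collagen genes with a promoter, tested or not, the GC box was in 24 of 44 windows. In the same 44 the TATA box was in 8, CCAAT in 12 and the AP-1 letters in 1. All these are counts of letters in few windows, given without a test.

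The machinery that makes collagen was followed through 4 gene lists, chosen with earlier results of these data known. Of 17 tested genes for folding and modification in the endoplasmic reticulum, 5 rose and 6 fell in shRBCK1, 2 rose and 1 fell in siANKRD35, and 10 rose and 3 fell in siMITD1, with median changes of -0.06, 0.09 and 0.24. Over all tested genes 24.1% rose and 24.9% fell in shRBCK1, 19.4% and 16.9% in siANKRD35, and 30% and 35.6% in siMITD1, with medians of 0.01, 0.03 and -0.03; the counts of the 4 lists are to be read against these shares. In siMITD1 the lysyl hydroxylase PLOD2 rose from 84.7 ± 1.3 to 166.8 ± 4.0 FPKM, the prolyl isomerase FKBP14 from 9.21 ± 0.78 to 17.5 ± 0.73, and the prolyl hydroxylase subunit P4HA1 from 31.3 ± 1.09 to 56.2 ± 1.23. SERPINH1, the collagen-specific chaperone HSP47, fell there from 166.6 ± 2.1 to 72.0 ± 3.1 FPKM (change -1.20, SE 0.034, adjusted p = 4.57e-08). P3H3, of the prolyl 3-hydroxylase family, fell by 0.12, and CRTAP, a partner of that family, by 0.15. The call of P3H3 was lost without sicontrol_for_siMITD1 2, siMITD1 1 or siMITD1 3 (adjusted p 0.0708 to 0.0886) and with no filter (0.0508). It was also lost with quantile normalization (-0.08, 0.104) and with a length correction (-0.07, 0.131). After correction for length and GC the sign of the P3H3 change turned (0.0071, 0.862). In shRBCK1 PLOD2 moved the other way, from 75.2 ± 1.96 to 58.3 ± 1.37 FPKM, as P3H2 and PPIB also fell, while FKBP14, TMEM38B and FKBP10 rose by 0.45, 0.36 and 0.33. In siANKRD35 P4HB, the shared beta subunit of prolyl hydroxylase, fell from 187.8 ± 3.4 to 148.4 ± 6.4 FPKM, and P4HA1 and CRTAP rose by 0.28 and 0.27. The P4HB call was lost without sicontrol_for_siANKRD35 3 (adjusted p = 0.0517), the CRTAP call without any 1 control or siANKRD35 3 (0.0777 to 0.105), and the P4HA1 call without any 1 library other than siANKRD35 2 (0.0577 to 0.16). With quantile normalization CRTAP was at 0.04 (adjusted p = 0.761) and P4HA1 at 0.09 (0.502), and P4HA1 was at 0.11 with a length correction (0.455) and 0.07 after correction for length and GC (0.249). The P4HA1 call was also lost with a pseudocount of 0.1 (0.0511) and with no filter (0.0984), and with a replicate block those of P4HA1 (0.0723) and CRTAP (0.0506) were lost.

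Of the genes for secretion, processing and crosslinking, 8 of 15 tested fell and 2 rose in siANKRD35, with a median change of -0.30, where 16.9% of all tested genes and 28.1% of those of 5000 bases or more were called lower; 3 fell and 2 rose of 15 in shRBCK1, and 4 fell and 5 rose of 13 in siMITD1. The lysyl oxidase LOX rose in siANKRD35 from 42.5 ± 0.23 to 62.2 ± 5.48 FPKM, where its relative LOXL4 fell from 11.1 ± 0.11 to 5.31 ± 0.80. BMP1, the procollagen C-proteinase, fell by 0.51 in siANKRD35, and PXDN, the peroxidase that crosslinks type IV collagen, by 0.43. PXDN was not called after a length correction (-0.20, adjusted p = 0.106) or one for length and GC (-0.09, 0.144). PCOLCE2, an enhancer of the C-proteinase, rose by 0.29 there, a call lost without any 1 library other than siANKRD35 2 (adjusted p 0.0521 to 0.11), with no filter (0.0572), with a length correction (change 0.16, 0.141; with a replicate block 0.202) and after correction for length and GC (0.16, 0.0601). In siMITD1 SEC24D and PCOLCE2 rose by 0.51 and 0.50, and LOX, which passed the filter only through siMITD1, was called higher by 0.61 (with no filter adjusted p = 0.00189), and TLL2, LOXL1 and PCOLCE fell by 0.87, 0.68 and 0.56. In shRBCK1 PCOLCE and KLHL12 rose by 0.49 and 0.20, and TLL2 and SEC24D fell by 0.43 and 0.32. LOX, which passed the filter there only through shcontrol, was at 1.23 and 0.781 FPKM; its call was lost with no filter (adjusted p = 0.0961) and without shcontrol 2, shcontrol 3, shRBCK1 1 or shRBCK1 3 (0.0609 to 0.083).

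Of the receptor and uptake genes, 3 of 6 rose and 1 fell in shRBCK1, none rose and 3 of 6 fell in siANKRD35, and 2 of 5 rose and none fell in siMITD1, against 24.1% higher and 24.9% lower, 19.4% and 16.9%, and 30% and 35.6% of all tested genes. ADGRG1, an adhesion receptor that binds type III collagen, rose in shRBCK1 from 44.7 ± 1.05 to 59.8 ± 1.59 FPKM and in siMITD1 from 49.5 ± 0.41 to 72.1 ± 0.90, and fell in siANKRD35 from 15.7 ± 0.72 to 9.31 ± 1.07. ITGB1, the beta subunit of the collagen-binding integrins, rose by 0.26 in shRBCK1 and 0.25 in siMITD1. ITGA2 fell by 0.38 in shRBCK1, ITGA1 by 0.62 in siANKRD35 (not called after length correction, adjusted p = 0.0657), and MRC2, the collagen uptake receptor, rose by 0.20 in shRBCK1 and fell by 0.88 in siANKRD35. Among 7 collagen-degrading proteases, MMP1, an interstitial collagenase, rose in siANKRD35 from 8.19 ± 0.88 to 55.8 ± 8.35 FPKM (change 2.62, SE 0.124, adjusted p = 0.000168). MMP2, a gelatinase that also cuts type IV collagen, rose in shRBCK1 from 70.9 ± 2.83 to 99.4 ± 2.01 FPKM and fell in siMITD1 from 141.7 ± 1.5 to 80.6 ± 1.3. MMP14, which activates MMP2, rose in siMITD1 from 115 ± 1.78 to 162.9 ± 4.59 FPKM, and MMP13, which passed the filter in the RBCK1 table only through shcontrol, was at 1.26 ± 0.067 and 0.269 ± 0.046 FPKM (with no filter adjusted p = 0.00187).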

How the data were processed

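Per the labels' protocols, libraries were made from total RNA with a directional kit. The authors deposited FPKM values in 3 tables; the aligner, the counter and the strand counted are not given in the sources used here. Per the submitters' processing notes the build is mm10, that of the mouse, whereas 58735 of 58735 identifiers carry GENCODE 29 (GRCh38) human coordinates. FPKM times listed length gave whole reads (tolerance 0.01) for 100% of values in the RBCK1 and ANKRD35 tables and, with the RBCK1-table lengths, for 34 of 44 collagen genes in the MITD1 table. In addition, 6 value columns of the ANKRD35 table that name no sample were not used.

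Libraries were grouped by title, and the siANKRD35 columns, named ShRNA, were matched by target and replicate number. No 2 libraries of a group were identical, with a chi-square per gene of at least 2.12 over genes with 20 reads. Each comparison was fitted on its own 6 libraries with limma-trend (limma 3.58.1, R 4.3.3) on log2(FPKM + 1), without a replicate block, over genes with 1 FPKM or more in at least 3 libraries, two-sided, with Benjamini-Hochberg adjustment. A joint fit over the 3 tables tested differences of changes. The fits were tested on simulated data. Alternatives were a pseudocount of 0.1, no filter, a filter of 5 FPKM, quantile normalization, loess corrections (span 0.3) for length and for length with GC, voom on recovered reads, a replicate block, and leaving out each library.

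The members and gene lists were chosen with earlier results of these data known. Every tested collagen gene is named; untested ones are named where a library reached 0.1 FPKM or where a partner chain is described; of each pathway list the 3 largest rises and falls among called genes are named, with the 3 targets.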

Additional observations from a re-analysis of the deposited data

How the results depend on the processing

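The 8 collagen calls of siANKRD35 and the 9 of siMITD1 held in every alternative in which the gene was tested. With a filter of 5 FPKM, which tests 6 collagen genes, 5 were called in siANKRD35. In shRBCK1 6 were called, and leaving out 1 library gave 3 to 4; voom on recovered reads gave 9 and a length and GC correction 4. For COL27A1 in siANKRD35 a length and GC correction reversed the change to 0.24 (adjusted p = 0.0205), and for P3H3 in siMITD1 to 0.0071 (adjusted p = 0.862); the cause was not tested. Quantile normalization moved the all-gene split of shRBCK1 from 24.1% higher and 24.9% lower to 28.6% and 21.7%, and that of siANKRD35 from 19.4% and 16.9% to 14.1% and 17.1%. Correlations of same-numbered deviations were -0.007, 0.008 and 0.028 for RBCK1, 0.179, 0.114 and -0.087 for ANKRD35, and 0.105, 0.032 and -0.001 for MITD1. Those between different numbers ran from -0.029 to 0.020, from -0.225 to 0.140 and from -0.079 to 0.045. The ranges overlap, though the highest value of each table was a same-numbered one. Whether replicate numbers pair the libraries was not tested. With a replicate block 5, 8 and 9 collagen genes were called in shRBCK1, siANKRD35 and siMITD1, and with the replicate block and a length correction 6, 8 and 10. The 18 members that stayed under 0.1 FPKM were not tested; the filter and the log2(FPKM + 1) scale leave little room for a change there.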
